A study of Mus musculus with 8 samples.

Results

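The fibroblast growth factor (FGF) genes described here are 9 genes, 6 ligands (Fgf1, Fgf2, Fgf7, Fgf10, Fgf18 and Fgf22) and 3 receptors (Fgfr1, Fgfr2 and Fgfr3), among 55488 genes in the tables. They were chosen by name, after their CPM in knockout and wild type were known, and found by symbol and Ensembl identifier. All 9 passed the filter on low counts that left 16908 genes tested. They were measured by bulk RNA-seq of dorsal skin, with 4 libraries from TPH1 knockout mice and 4 from WT mice, all aged 3 months. Per the title, the study addresses peripheral serotonin in the epidermis and dermis. The knockout removes Tph1, the enzyme gene for serotonin synthesis outside the brain. The labels give neither the knockout allele nor the strain or sex, nor whether the libraries are separate mice.

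FGFs are secreted proteins that bind receptor tyrosine kinases together with heparan sulfate chains on the cell surface. The bound receptors signal through the adaptor Frs2 and the Ras and MAP kinase cascade, which in turn raises its own inhibitors, the Sprouty and Dusp genes. In skin, mesenchymal cells make Fgf7 and Fgf10, which act on an epithelial splice form of Fgfr2, while Fgfr1 is also found in the dermis. In mouse skin, loss of Fgfr1 and Fgfr2 from keratinocytes impairs hair follicles and the epidermal barrier, and Fgf18 is known for keeping hair follicles at rest.

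The libraries held 2.05e+07 to 2.47e+07 expected counts each. Tph1 had 0 counts in each of the 4 knockout libraries, and 18, 0, 27 and 11 counts in wild type replicates 1 to 4. CPM values here are counts per scaled library total, on the usual CPM scale. On the unscaled library total, 3 counts, the floor used here, amount to 0.122 to 0.146 CPM depending on the library. Wild type replicate 2 thus could not be told from the knockout libraries by this gene. Keratinocyte markers were present in every library, with basal genes at 9.10 or more on the mean log2(CPM + 1) scale. Tph1 knockout replicate 3 stood apart in hair genes: its list of 8 inner root sheath genes was at 7.45 (mean log2(CPM + 1)), against 1.55 to 4.67 in the other knockout libraries and 1.55 to 4.79 in wild type. Where leaving out either library moved a member's log2 fold change by over 1.5 times, the value without it is given, except for Fgfr2 and Fgfr3, whose values lay near 0.

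The members were chosen with their knockout and wild-type values in these libraries known, though by no threshold. Levels, fold changes and calls between genotypes are therefore a description of these 8 libraries and carry no weight as tests of the family. Of the 9 genes, 1 was called higher and 0 lower in knockout skin (edgeR quasi-likelihood test, adjusted p under 0.05 over all genes). At an unadjusted p under 0.05 the number was also 1, and the DESeq2 Wald test called 1. Over all tested genes 0.651% were called by edgeR, 0.118% as higher and 0.532% as lower. The shares were 17.6% at an unadjusted p under 0.05 and 5.11% for the DESeq2 Wald test. The members' median log2 fold change was 0.14, against 0.03 over all tested genes. In bulk skin, fewer cells of a type and less RNA per cell cannot be told apart.

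Fgf1 was the member that was called. It encodes a ligand that binds all FGF receptors and has no classical secretion signal. In GRCm38 it occupies chromosome 18, positions 38838673 to 38929472, on the minus strand. The opposite strand holds Arhgap26, which averaged 0 counts in knockout and 0.282 in wild type. Fgf1 had 43.4, 53.2, 51.9 and 54.4 CPM in knockout replicates 1 to 4, against 27.3, 26.8, 23.4 and 31.1 CPM in wild type. Every knockout library lay above every wild-type library, as did those of 5.39% of all tested genes. Its mean was 50.7 ± 4.97 CPM in knockout and 27.1 ± 3.16 CPM in wild type (SD, n = 4 each), or 0.90 ± 0.13 higher on the log2 scale (SE, adjusted p = 0.0220 by edgeR). The per-length levels showed the same separation, with 12.4 to 24.3 TPM in knockout and 8.40 to 10.3 TPM in wild type. So did the authors' normalized signal, at 985 to 1325 in knockout and 545 to 676 in wild type.

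The Fgf1 difference kept its size in every fit that left out 1 library, from 0.84 to 0.97 on the log2 scale, and was called in 4 of those 8. It was 0.88 without knockout replicate 2 (edgeR adjusted p = 0.108) and 0.87 without knockout replicate 4 (adjusted p = 0.0924). It was 0.90 without wild type replicate 1 (adjusted p = 0.0635) and 0.84 without wild type replicate 3 (adjusted p = 0.0624). In the other 4 fits the adjusted p was between 0.0294 and 0.0404. Without both wild type replicate 2 and knockout replicate 3 it was 0.87 (adjusted p = 0.0434).

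The levels of some marker lists are given beside Fgf1. The level of 14 skeletal muscle genes overlapped, at 11.5 to 12.3 in knockout and 9.33 to 11.9 in wild type (mean log2(CPM + 1)), with a summed level of 63302 to 112878 CPM in knockout and 15389 to 100936 CPM in wild type. That of 14 immediate early and heat shock genes overlapped too, at 6.35 to 7.51 in knockout and 7.06 to 9.12 in wild type, or 1520 to 4367 CPM summed in knockout and 2257 to 14807 CPM in wild type. That of 10 suprabasal keratinocyte genes did not overlap, at 7.26 to 8.47 in knockout and 8.67 to 9.26 in wild type, or 4276 to 7231 CPM summed in knockout and 10457 to 13735 CPM in wild type. In these 3 lists no gene was at 0 in any library. Positive log2 fold changes were found in 14 of 14 muscle genes, 0 of 14 immediate early and heat shock genes and 0 of 10 suprabasal genes. By edgeR 0 of the muscle genes, 1 of the immediate early and heat shock genes and 3 of the suprabasal genes were called, all as lower. Of the 16908 tested genes, 8982 had a positive value and 0.532% were called lower. Of other lists with 0 genes called, positive values were found in 1 of 8 immune, 3 of 12 adipocyte, 8 of 8 tested hair shaft and 7 of 8 sebaceous genes. Their medians were -0.60, -0.52, 2.13 and 1.03 in that order. In the remaining lists with 0 genes called, positive values were found in 7 of 8 inner root sheath, 5 of 7 endothelial and 4 of 8 bulge genes. The medians of these were 2.84, 0.06 and 0.08. Positive values were found in 4 of 8 dermal papilla, 3 of 12 fibroblast, 2 of 8 basal keratinocyte and 2 of 6 Schwann cell genes. The medians of these were -0.05, -0.19, -0.32 and -0.11. The hair shaft level was 5.31 in knockout replicate 3, 1.06 to 2.76 in other knockout libraries and 0.96 to 2.42 in wild type. Krt34, Krt81, Krt86 and Padi3 of that list were at 0 in at least 1 library. The sebaceous level was 6.96 in knockout replicate 3, 3.56 to 4.72 in other knockout libraries and 4.18 to 5.18 in wild type. The part of these lists in the Fgf1 result was not tested.

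**Figure D1:**
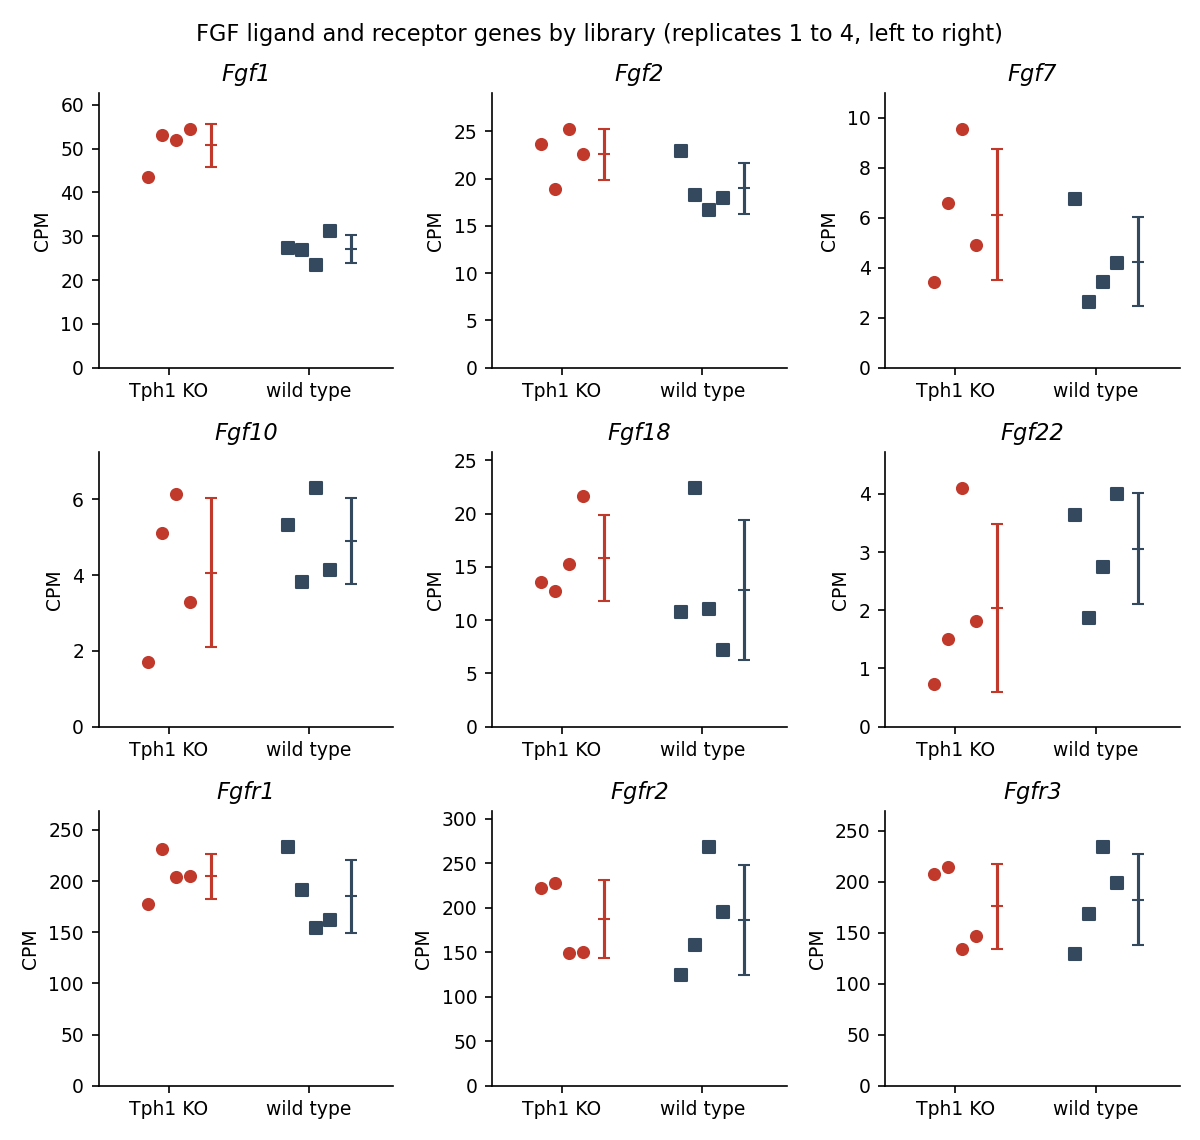
CPM (y axis, from 0) of each of the 9 genes in 4 Tph1 knockout libraries (red circles) and 4 wild-type libraries (blue squares), with the mean and SD beside each group. Of the 9 panels, only that of Fgf1 shows groups that do not overlap, at 43.4 to 54.4 CPM in knockout and 23.4 to 31.1 CPM in wild type.

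Fgf2, like Fgf1 a ligand without a classical secretion signal, differed little. It had 23.6, 18.9, 25.2 and 22.6 CPM in knockout replicates 1 to 4 and 22.9, 18.3, 16.7 and 18.001 CPM in wild type. The groups overlapped through wild type replicate 1 and knockout replicate 2. Knockout over wild type, the log2 fold change was 0.25 ± 0.14 (SE, adjusted p = 0.386 by edgeR), and 0.16 without wild type replicate 2 and knockout replicate 3. Fgf2 overlaps Nudt6, which lies on the opposite strand, over 5199 bases of chromosome 3, and without strand information reads from the shared bases cannot be told apart. Nudt6 itself was at 0.68 ± 0.39 on the log2 scale (SE, adjusted p = 0.384 by edgeR).

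Fgf7, Fgf10 and Fgf22 form a subfamily of ligands for the epithelial form of Fgfr2, and all 3 varied widely between libraries. Fgf7, the keratinocyte growth factor, had 3.42, 6.58, 9.54 and 4.91 CPM in knockout and 6.77, 2.62, 3.42 and 4.19 CPM in wild type. Its highest libraries were knockout replicate 3 and wild type replicate 1, and the genotypes overlapped over most of their ranges. Its log2 fold change was 0.52 ± 0.38 (SE, adjusted p = 0.485 by edgeR), and 0.23 without knockout replicate 3. Leaving out wild type replicate 2 gave 0.34, and leaving out wild type replicate 1 gave 0.84. It was 0.03 without knockout replicate 3 and wild type replicate 2 together (adjusted p = 0.969). The same 2 libraries had the highest levels of 12 fibroblast genes, at 6.60 in knockout replicate 3 and 7.18 in wild type replicate 1. The fibroblast level was 5.46 to 6.60 in knockout and 5.68 to 7.18 in wild type (792 to 2201 CPM summed in knockout and 1074 to 4077 CPM in wild type), with no gene of that list at 0, and its part in the Fgf7 values was not tested.

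Fgf10, a dermal ligand of the same receptor form, had 1.71, 5.12, 6.14 and 3.28 CPM in knockout and 5.33, 3.82, 6.29 and 4.14 CPM in wild type. Knockout replicate 1 was the lowest, and the knockout libraries spanned a 3.59-fold range, against 1.65-fold in wild type. On the log2 scale the difference was -0.27 ± 0.37 (SE, adjusted p = 0.733 by edgeR), and -0.03 without knockout replicate 1. It was -0.54 without knockout replicate 3 and -0.13 without wild type replicate 3. With both knockout replicate 3 and wild type replicate 2 left out it was -0.66 (adjusted p = 0.382).

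Fgf22, which is expressed in the inner root sheath of mouse hair follicles, was the least abundant member by count, with a median of 51.5 counts over the 8 libraries. It had 0.740, 1.499, 4.10 and 1.82 CPM in knockout and 3.63, 1.87, 2.74 and 4.01 CPM in wild type. Knockout replicate 3, the library with the highest hair gene levels, was above every wild-type library, and the other 3 knockout libraries were below every wild-type library. Knockout over wild type, the log2 fold change was -0.58 ± 0.48 (SE, adjusted p = 0.546 by edgeR), and -1.17 without knockout replicate 3 (adjusted p = 0.202). Without that library and wild type replicate 2 it was -1.36 (adjusted p = 0.154). It was -0.31 without knockout replicate 1. Fgf22 overlaps Rnf126, on the opposite strand, over 82 bases, and without strand information reads from the shared bases cannot be told apart. Rnf126 averaged 1894 counts in knockout and 2105 counts in wild type. Over the 8 inner root sheath genes the level was 1.55, 4.67, 7.45 and 2.07 in knockout replicates 1 to 4 (mean log2(CPM + 1)). In wild type replicates 1 to 4 it was 1.55, 1.66, 4.79 and 3.37. The summed level of these genes was 237 to 2394 CPM in knockout and 194 to 550 CPM in wild type, with Krt27 and Krt73 at 0 in at least 1 library. Its part in the Fgf22 values was not tested.

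Fgf18, a ligand of the resting hair follicle, had 13.6, 12.8, 15.3 and 21.7 CPM in knockout and 10.8, 22.4, 11.1 and 7.25 CPM in wild type. Its highest library was wild type replicate 2, the library without a Tph1 count, and that library alone made the genotypes overlap. Its log2 fold change was 0.30 ± 0.33 (SE, adjusted p = 0.653 by edgeR), and 0.69 without wild type replicate 2 (adjusted p = 0.225). It was 0.71 without both that library and knockout replicate 3 (adjusted p = 0.230). The difference was smaller, 0.11, without knockout replicate 4 and without wild type replicate 4.

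The receptor genes differed less between genotypes than between libraries of the same genotype. Fgfr1 had 177, 232, 204 and 205 CPM in knockout and 233, 192, 154 and 162 CPM in wild type, with the highest value in wild type replicate 1. On the log2 scale the difference was 0.14 ± 0.16 (SE, adjusted p = 0.667 by edgeR). It was 0.27 without wild type replicate 1, and 0.06 to 0.08 without knockout replicate 2, wild type replicate 3 or wild type replicate 4. Fgfr2, the receptor of the Fgf7 subfamily, had 223, 228, 149 and 151 CPM in knockout and 125, 158, 268 and 195 CPM in wild type. The wild-type libraries held both the lowest and the highest value, a 2.15-fold range, and the log2 fold change was 0.01 ± 0.25 (SE, adjusted p = 0.990 by edgeR). Fgfr3, a receptor gene of epidermis and cartilage that restrains growth of cartilage, had 208, 215, 134 and 147 CPM in knockout and 129, 168, 234 and 199 CPM in wild type. Knockout over wild type, the log2 fold change was -0.05 ± 0.22 (SE, adjusted p = 0.921 by edgeR). Fgfr2 lies on chromosome 7, as Tph1 does, 83.5 Mb away.

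**Figure D2:**
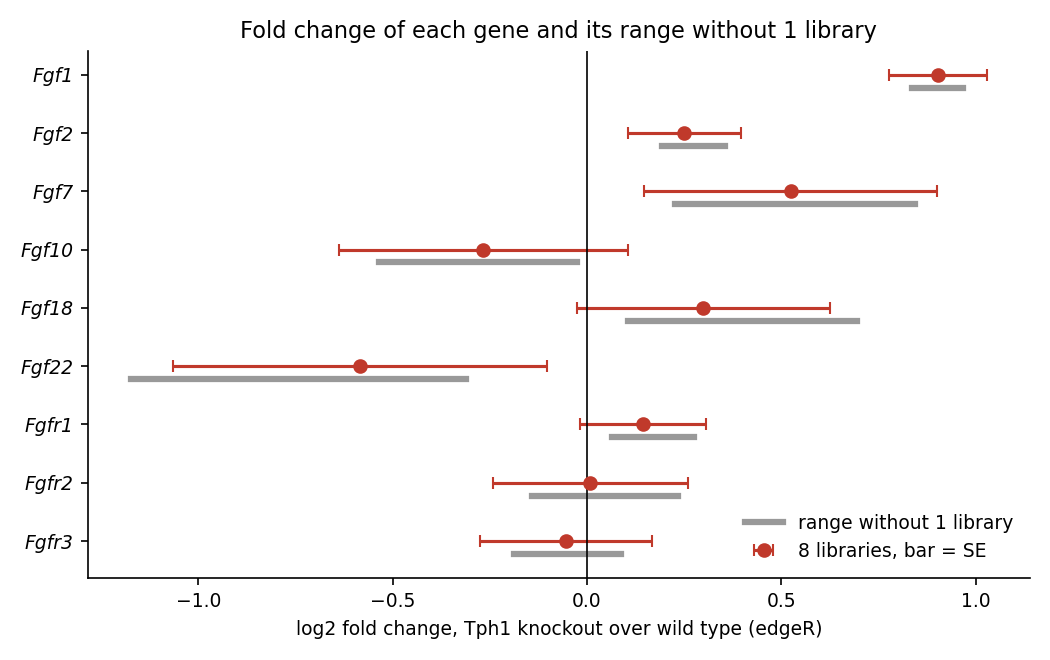
The edgeR log2 fold change of each gene, Tph1 knockout over wild type (x axis), with its SE as a red bar, and below it in grey the range over the 8 fits without 1 library. The grey range of Fgf1, 0.84 to 0.97, is narrow and far from 0, and those of Fgfr2 and Fgfr3 cross 0.

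Fgfr2 and Fgfr3 varied together across the 8 libraries, a relation that does not involve the genotype contrast. By CPM the libraries stood in the same order for both genes, with wild type replicate 1 the lowest and wild type replicate 3 the highest. By TPM the order differed. Knockout replicate 3 was below wild type replicate 2 for Fgfr2 (93.55 and 97.65 TPM) and above it for Fgfr3 (71.28 and 66.43 TPM). In the authors' normalized signal knockout replicate 1 was above knockout replicate 2 for Fgfr2 (5268 and 4736) and below it for Fgfr3 (4706 and 4977). The coefficients that follow were computed on CPM only. Pearson's r on log2(CPM + 1) was 0.968 (n = 8, exact permutation p = 0.000397, adjusted p = 0.0111 over 28 pairs). Spearman's rho was 1 (exact permutation p = 4.96e-05, the smallest that 8 libraries can give, adjusted p = 0.00139). Without wild type replicates 1 and 3, the libraries farthest from the median of Fgfr2, r was 0.949. The 28 pairs are those of the 8 members whose genotypes overlap, and in the other 27 pairs neither coefficient passed after adjustment. Next by r were Fgf10 and Fgf22, with r = 0.748 (exact permutation p = 0.0268, adjusted p = 0.375) and rho = 0.643 (exact permutation p = 0.0962, adjusted p = 0.423), and without knockout replicates 1 and 4 r was 0.270. Next by rho were Fgf7 and Fgfr1, with r = 0.641 (exact permutation p = 0.0888, adjusted p = 0.457) and rho = 0.690 (exact permutation p = 0.0694, adjusted p = 0.423), and without knockout replicate 3 and wild type replicate 2 r was 0.925.

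The level of 8 basal keratinocyte genes was 9.10 to 9.73 in knockout and 9.50 to 10.1 in wild type, highest in wild type replicate 3 and lowest in knockout replicate 3. It was 8752 to 15605 CPM summed in knockout and 12150 to 23016 CPM in wild type, with no gene of that list at 0, and its part in the relation was not tested. Among 12008 genes with a mean of at least 5 CPM that are no members, 2 had a centred pattern closer to Fgfr2 than that of Fgfr3. The root mean square difference from Fgfr2 was 0.0947 log2 units for Fgfr3, 0.0726 for Bbc3 and 0.0935 for Epb41l4aos, against a root mean square of 0.353 for the pattern of Fgfr2 itself. Next came Fpgs, E2f1 and Lrfn4, at 0.110 to 0.126.

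**Figure D3:**
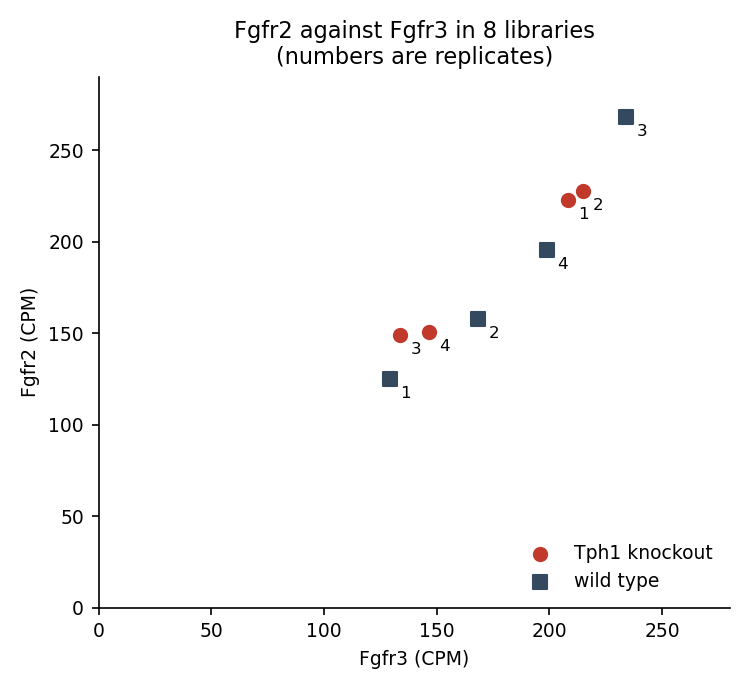
Fgfr2 (y axis) against Fgfr3 (x axis), both in CPM from 0, in 4 Tph1 knockout libraries (red circles) and 4 wild-type libraries (blue squares) with replicate numbers beside the points. The 8 points rise together from wild type replicate 1, at 129 and 125 CPM of Fgfr3 and Fgfr2, to wild type replicate 3, at 234 and 268 CPM, and the genotypes are mixed along the way.

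Promoter windows of the receptor genes that varied together are shown because a shared pattern invites a look at the bases beside their starts. Each runs 5′ to 3′ from 250 bases before to 50 after a RefSeq start in GRCm38.p6, at chr7:130266759-130267058 on the minus strand for Fgfr2 and at chr5:33721474-33721773 on the plus strand for the first of the 2 starts of Fgfr3. Capitals mark GC boxes, the letters GGGCGG on either strand.
Fgfr2: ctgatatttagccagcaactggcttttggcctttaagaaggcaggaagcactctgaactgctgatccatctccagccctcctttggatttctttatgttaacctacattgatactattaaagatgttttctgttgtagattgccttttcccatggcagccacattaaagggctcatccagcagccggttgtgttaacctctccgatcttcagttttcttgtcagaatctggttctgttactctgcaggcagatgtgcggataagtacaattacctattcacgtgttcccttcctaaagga
Fgfr3: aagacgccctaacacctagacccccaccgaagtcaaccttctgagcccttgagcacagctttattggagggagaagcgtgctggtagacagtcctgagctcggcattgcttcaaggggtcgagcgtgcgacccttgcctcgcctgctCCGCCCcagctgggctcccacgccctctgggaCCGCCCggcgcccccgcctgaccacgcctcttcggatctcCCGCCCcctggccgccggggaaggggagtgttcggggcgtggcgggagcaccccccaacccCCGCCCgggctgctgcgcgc
The Fgfr2 window held 0 GC boxes in 43.7% G and C, and the Fgfr3 window held 4 in 69.7%. The window at the other Fgfr3 start held 2 that share a base. A GC box was found in 35.7% of the 32851 promoter windows of the same length in the table. The TATA box letters TATAAA were in neither gene's windows and in 13.6% of all windows. These are matches of letters only, and no match says only that the letters are not in this window.

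Fgf22 was the ligand with the widest range over the 8 libraries on the log2(CPM + 1) scale, 1.55. The genes with the most similar centred pattern were Skint9, Gm14137, Prdm1, Ammecr1 and Sdr42e1, with a root mean square difference of 0.0969, 0.142, 0.200, 0.216 and 0.218 log2 units. The pattern of Fgf22 itself had a root mean square of 0.516. Fgf22 spanned 0.740 to 4.10 CPM, and at such low values adding 1 narrows the log2 range more than at the CPM of these genes. Skint9 averaged 16.99 CPM in knockout and 25.6 CPM in wild type.

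Levels of different genes were compared per length, as TPM. In wild-type skin the order from high to low was Fgfr2, Fgfr1, Fgfr3, Fgf18, Fgf1, Fgf2, Fgf7, Fgf22 and Fgf10, and the order of the means was the same in knockout skin. Fgfr2 averaged 103 ± 19.97 TPM in knockout and 121 ± 41.3 TPM in wild type, Fgfr1 83.7 ± 18.8 TPM in knockout and 78.6 ± 25.7 TPM in wild type, and Fgfr3 71.8 ± 12.6 TPM in knockout and 72.4 ± 13.7 TPM in wild type (SD, n = 4 each). The ranges of these 3 receptors overlapped, so their order is not resolved. Every receptor value lay above every ligand value in the same genotype.

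Among the ligands, Fgf18 averaged 22.4 ± 5.92 TPM in knockout and 18.2 ± 9.29 TPM in wild type, and Fgf1 18.3 ± 4.86 TPM in knockout and 9.28 ± 0.793 TPM in wild type (SD, n = 4 each). Their ranges overlapped in each genotype, and Fgf18 was above Fgf1 in 4 of 4 knockout libraries and 3 of 4 wild-type libraries. Fgf1 was above Fgf2 with no overlap in either genotype. Fgf2 averaged 5.02 ± 1.39 TPM in knockout and 4.402 ± 1.25 TPM in wild type, and overlapped Fgf7. Fgf7, Fgf22 and Fgf10 averaged 4.49, 1.66 and 1.36 TPM in knockout and 2.79, 2.23 and 1.61 TPM in wild type, and neighbours in that order overlapped.

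The 6 ligands summed to 36.0 to 74.8 TPM in knockout and 27.2 to 48.3 TPM in wild type. Fgf1 made up 34.7% ± 3.01 of that sum in knockout and 25.3% ± 6.50 in wild type (SD, n = 4 each), with overlapping ranges. The 3 receptors summed to 217 to 308 TPM in knockout and 243 to 331 TPM in wild type.

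**Figure D4:**
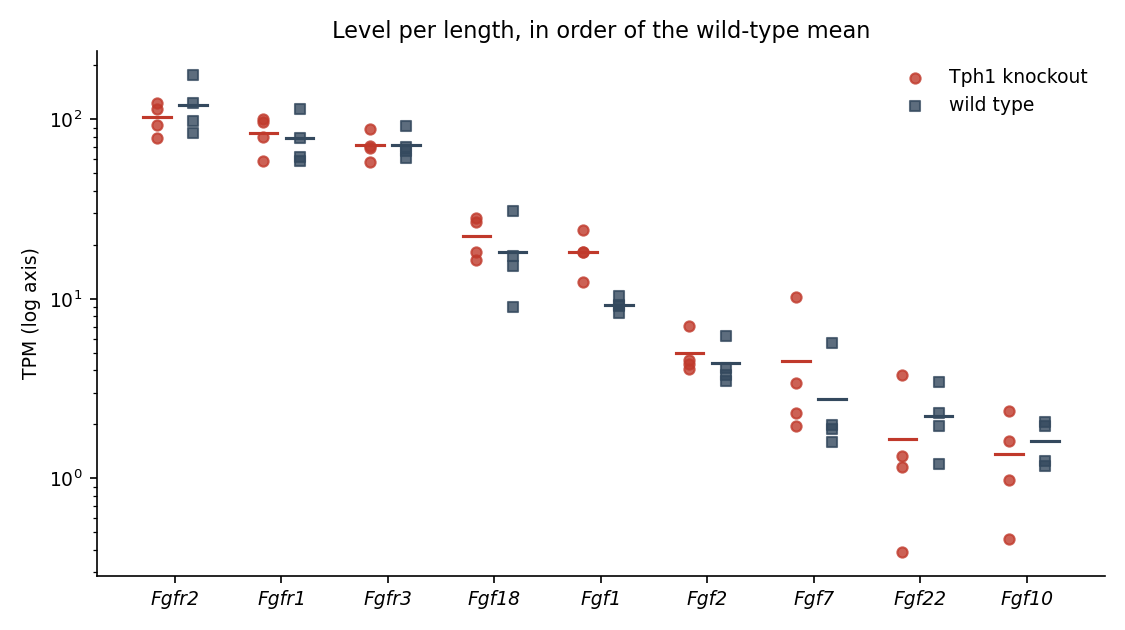
Level per length (TPM, log axis) of the 9 genes in order of the wild-type mean, in 4 Tph1 knockout libraries (red circles) and 4 wild-type libraries (blue squares), with a line at each mean. The 3 receptors, at 58.0 TPM or more in every library, stand above the 6 ligands, at 31.0 TPM or less.

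The mix of transcripts of a gene was followed through its weighted transcript length, the mean length of its annotated transcripts weighted by their estimated abundance. It is estimated from the same reads as the counts, but it was not used to list the genes. The libraries with the most Fgf7 and Fgf2 counts, knockout replicate 3 and wild type replicate 1, also had the shortest weighted lengths of these genes. It varied in 8 of the 9 genes, and Fgf10 was at 4114 bases in every library. No difference passed the exact permutation test (two-sided, 70 assignments of libraries, smallest possible p = 0.0286) after adjustment over the 8 genes, and none passed before it. Fgfr2, with 27 annotated transcripts, averaged 2421 ± 155 bases in knockout and 2149 ± 162 bases in wild type (SD, n = 4 each, exact permutation p = 0.0857, adjusted p = 0.171). Fgfr3 averaged 3176 ± 127 bases in knockout and 3370 ± 103 bases in wild type (exact permutation p = 0.0571, adjusted p = 0.171). Fgf1 averaged 3695 ± 196 bases in knockout and 3914 ± 91.6 bases in wild type (exact permutation p = 0.0857, adjusted p = 0.171).

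In 0 of these 8 genes did the weighted lengths of the genotypes separate without overlap, against 3.9% of the 13815 tested genes with more than 1 transcript. The difference was 12.7% of the wild-type mean for Fgfr2, within the 5th to 95th percentiles of those genes, -9.94% to 16.95%. The values do not name the transcripts involved, so the epithelial and mesenchymal splice forms of the receptors were not analysed here.

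The rest of the pathway was taken as 6 lists with 79 genes, of which 78 were matched and 66 tested. By edgeR, 1 of the 66 was called lower and 0 higher, with 15 at an unadjusted p under 0.05 and 5 called by the DESeq2 Wald test. Over all tested genes these shares were 0.532% for calls as lower, 17.6% for an unadjusted p under 0.05 and 5.11% for DESeq2. The counts in single lists below are to be read against those shares. The median log2 fold change of the 66 genes was -0.06, against 0.03 over all tested genes. The called gene was Mapk3, which encodes the MAP kinase ERK1 at the end of the cascade. It had 120, 126, 124 and 112 CPM in knockout and 172, 197, 191 and 180 CPM in wild type. Its knockout values were all below its wild-type values, as were those of 5.65% of all tested genes. Its log2 fold change was -0.62 ± 0.11 (SE, adjusted p = 0.0473 by edgeR). The direction of Mapk3 held in each of the 8 fits without 1 library, at -0.65 to -0.59, and it was called in 0 of them (adjusted p = 0.0617 to 0.212). It was not called without a filter on low counts either (adjusted p = 0.0635).

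In the signal relay list as a whole, edgeR called 1 of 18 genes, with 6 at an unadjusted p under 0.05 and 1, Mapk3, called by DESeq2. The median log2 fold change of the list was 0.02, with 9 positive and 9 negative values. The Ras genes Hras and Nras were at -0.51 ± 0.16 and -0.37 ± 0.13, and the receptor adaptor gene Frs2 at 0.44 ± 0.16 (SE, edgeR adjusted p = 0.166, 0.206 and 0.213).

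Of the 15 tested target and feedback genes edgeR called 0, with 2 at an unadjusted p under 0.05 and 1, Dusp5, called by DESeq2. Their median log2 fold change was -0.07. Dusp5, which encodes a phosphatase that acts on ERK, had 6.25, 7.49, 9.98 and 6.42 CPM in knockout and 28.7, 10.5, 19.5 and 9.99 CPM in wild type. The knockout libraries were all below the wild-type libraries, as for 5.65% of all tested genes, by a narrow margin between 9.98 and 9.99 CPM. The log2 fold change of Dusp5 was -1.19 ± 0.34 (SE, adjusted p = 0.142 by edgeR). Dusp6, the ERK phosphatase gene often read as a mark of FGF signalling, was at 27.1 ± 7.03 CPM in knockout and 42.4 ± 23.2 CPM in wild type (SD, n = 4 each, edgeR adjusted p = 0.355). Wild type replicate 1 was the highest for both phosphatase genes. The log2 fold change of Dusp6 was -0.64 with all libraries and -0.21 without that one. The list of 14 immediate early and heat shock genes, given beside Fgf1, had its 3 highest levels in wild type replicates 1, 3 and 4, and its part in these values was not tested.

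The Sprouty gene Spry1 was at -0.30 ± 0.12 on the log2 scale (SE, adjusted p = 0.242 by edgeR). Spry2, Spry4, Etv4 and Etv5, usual target genes named after their values were seen, were at 0.29 ± 0.16, -0.44 ± 0.34, 0.08 ± 0.27 and -0.08 ± 0.15 (SE, edgeR adjusted p = 0.367, 0.515, 0.904 and 0.808). The direction of Etv4 and Etv5 turned when 1 library was left out. Spry4 was at -0.70 without knockout replicate 3, -0.68 without wild type replicate 2 and -0.94 without both. It was -0.24 without wild type replicate 1 and -0.29 without knockout replicate 4, and Spry2 was 0.16 without knockout replicate 2.

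Of 8 tested receptors, co-receptors and binding proteins other than the members edgeR called 0, with 3 at an unadjusted p under 0.05 and 1, Fgfbp1, called by DESeq2. Fgfbp1 encodes a carrier that frees FGFs from the matrix. It had 37.3, 30.7, 48.9 and 37.5 CPM in knockout and 89.3, 65.2, 73.8 and 46.4 CPM in wild type, where knockout replicate 3 and wild type replicate 4 overlapped. On the log2 scale the difference was -0.83 ± 0.21 (SE, adjusted p = 0.108 by edgeR). Its relative Fgfbp3 was at -0.61 ± 0.22 and Flrt3, which encodes a membrane protein that binds FGF receptors, at 0.63 ± 0.23 (SE, edgeR adjusted p = 0.205 and 0.212).

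Of 20 heparan sulfate carrier and enzyme genes edgeR called 0, with 3 at an unadjusted p under 0.05 and 2, Sdc1 and Sdc4, called by DESeq2. Their median log2 fold change was -0.07. Sdc1 and Sdc4 encode syndecans, membrane proteins that carry heparan sulfate. Sdc1 was at 301 ± 21.8 CPM in knockout and 454 ± 89.4 CPM in wild type, and Sdc4 at 242 ± 37.6 CPM in knockout and 379 ± 47.1 CPM in wild type (SD, n = 4 each, edgeR adjusted p = 0.151 and 0.112). For both syndecan genes every knockout library lay below every wild-type library, as for 5.65% of all tested genes. For Sdc1 the margin was narrow, between 321 CPM in knockout replicate 3 and 327 CPM in wild type replicate 4. Glce, an enzyme gene of heparan sulfate synthesis, was at -0.38 ± 0.15 (SE, edgeR adjusted p = 0.235).

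Of the 12 other secreted FGFs, 3 were tested and 0 called by edgeR, with 0 at an unadjusted p under 0.05 and 0 called by DESeq2. Fgf5, which ends hair growth in mice, had 62 counts over the 4 knockout libraries and 64 over the 4 wild-type libraries. Fgf6, a muscle ligand, had 49 counts in knockout and 118 in wild type, and Fgf9 had 46 in knockout and 74 in wild type. The log2 fold change of Fgf6 was -1.22 with all libraries and -0.64 without wild type replicate 2, and that of Fgf9 was -0.66 with all libraries and -0.28 without wild type replicate 4. The other 9 were too low to test. Of these, Fgf16 and Fgf4 had the most counts, at 36 and 33 in knockout and 11 and 5 in wild type. Fgf17 had 4 counts in knockout and 5 in wild type, and Fgf15 had 0 counts in both genotypes. Of the 4 intracellular FGF genes, which are not known as receptor ligands, 2 were tested and edgeR and DESeq2 each called 0, with 1 at an unadjusted p under 0.05. Fgf13 was at 18.5 ± 0.919 CPM in knockout and 14.6 ± 2.55 CPM in wild type (SD, n = 4 each, edgeR adjusted p = 0.271). Its knockout values were all above its wild-type values, as were those of 5.39% of all tested genes. Fgf11 was at 0.24 ± 0.17 on the log2 scale (SE, adjusted p = 0.477 by edgeR), or 0.16 without knockout replicate 2.

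**Figure D5:**
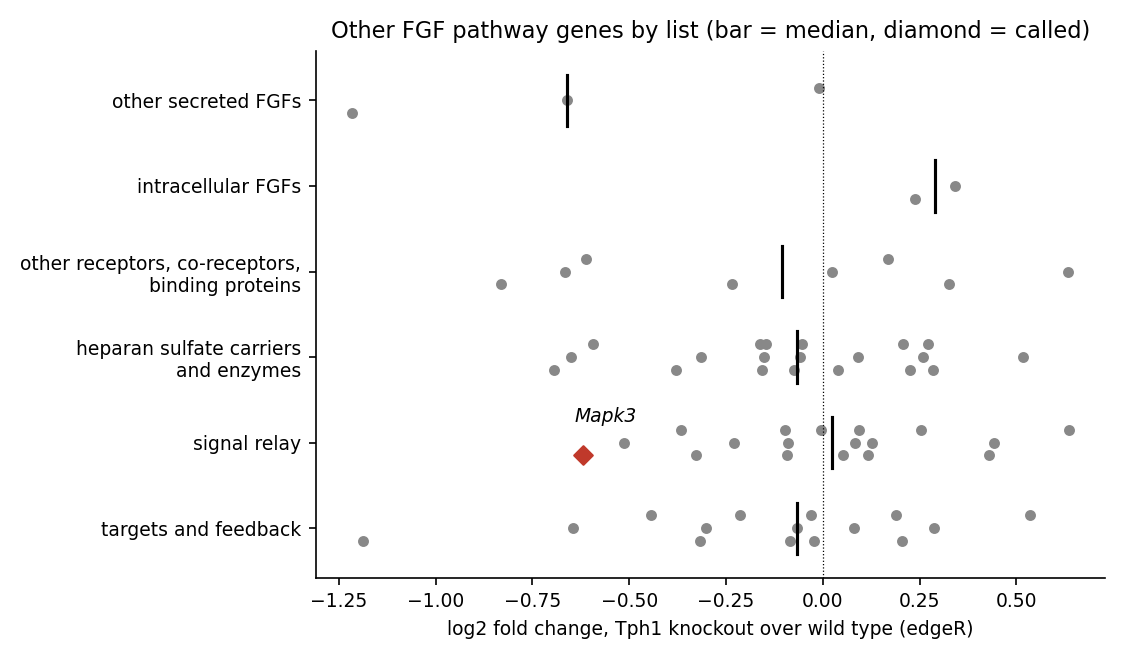
The edgeR log2 fold change, Tph1 knockout over wild type (x axis), of the 66 tested genes of 6 FGF pathway lists, with a bar at each list's median. The red diamond is Mapk3, at -0.62, the gene called at an adjusted p under 0.05, and the grey points were not called.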

How the data were processed

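Per the submitters' processing notes the tools were STAR 2.7.6a, RSEM 1.31, DESeq2 and DESeq on GRCm38, with no role or order. The library kit, NEBNext Ultra RNA per the labels' protocols, keeps no strand information. The deposited tables hold, per the file headers, RSEM expected counts (10.7% to 11.5% of genes not whole), TPM and FPKM scaled to effective length, and gene lengths in bases. The authors also deposited a matrix of normalized signal for 17382 genes, used for symbols, for Fgf1 and for the order of libraries in Fgfr2 and Fgfr3. Coordinates are GENCODE M21 on GRCm38, the files' build. Its Fgfr2 model spans 2961 kb and overlaps 69 genes, and the RefSeq model runs on chromosome 7 from 130162451 to 130266808.

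Expected counts were rounded and tested with edgeR 4.0.16 (R 4.3.3): filterByExpr (minimum count 10, minimum total 15), TMM, robust quasi-likelihood F test, genotype as the only term, Benjamini-Hochberg over 16908 genes. The script was tested on simulated data. CPM uses TMM-scaled library sizes. SE is the size of the log2 fold change over the square root of F. DESeq2 1.42.0 was an alternative, with other scalings, no filter, and each library left out. P-values reflect only how these libraries vary, which may be technical.

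Members and lists were chosen with earlier results of these data known. Named genes are the members and, per list, the called genes and the 3 smallest p; others are said to be chosen after their values were seen. Marker lists and their library levels, the mean of log2(CPM + 1), describe the libraries.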

Additional observations from a re-analysis of the deposited data

Results flagged for a closer look

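The weighted transcript length of Fgf2 stood far from the rest of its group in 2 libraries. It was 5613 bases in knockout replicate 3, against 5973 bases in the other 3 knockout libraries. It was 5478 bases in wild type replicate 1, against 5893 to 5973 bases in the other wild-type libraries. The gap to the nearest library, divided by the group's range, passed Dixon's 95% limit for 4 samples in both groups. In knockout the other 3 values are tied at 5973 bases, a length that wild type replicates 3 and 4 share, so the ratio there is fixed by the ties. In all 34 groups were examined and 2 passed, where chance puts about 1 in 20 past this limit. The same 2 libraries had the shortest weighted length of Fgf7, 1580 bases in knockout replicate 3 and 1880 bases in wild type replicate 1, and the highest fibroblast gene levels.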

How the results depend on the processing

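No paired analysis was possible because the labels give no replicate numbers, litters or batches shared between the genotypes. Without 1 library, the number of genes called ran from 8 to 170 (110 with all), that of members from 0 to 1, and that of pathway list genes was 0 in each fit, with 7 to 16 at an unadjusted p under 0.05. Members called were 0 without knockout replicate 2 or 4 or wild type replicate 1 or 3, with 1 to 3 at an unadjusted p under 0.05. The DESeq2 Wald test called 862 genes, of which 5 in the pathway lists. Without both libraries in doubt 167 genes were called. In the pathway lists 0 were called in that fit, without a filter on low counts and with the effective length offset (9, 16 and 17 at an unadjusted p under 0.05). The log2 fold change of Fgf1 was 0.84 to 0.97 without 1 library. Fgf1 was called in 9 of 13 alternatives, with an adjusted p from 7.68e-07 to 0.108.

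Values near 0 changed sign. Fgfr2 ran from -0.14 to 0.23 without 1 library and was -0.0034 with DESeq2 size factors, -0.0042 with the DESeq2 Wald test and -0.17 with the length offset. Fgfr3 ran from -0.19 to 0.086 and was 0.049 with the length offset and 0.0031 without both libraries in doubt. Without 1 library Fgf5 ran from -0.25 to 0.29, Etv4 from -0.12 to 0.34 and Etv5 from -0.20 to 0.015, and without both in doubt Fgf5 was 0.046 and Etv4 -0.056. Differences in weighted length, knockout minus wild type, ran from -66.9 to 37.2 bases for Fgfr1, -249 to 115 for Fgf7 and -63.4 to 144 for Fgf2. The order of levels in wild type was the same by FPKM. The causes were not tested. Fgf22, Fgf10 and Fgf7 rest on 16 to 219 counts a library, which limits their precision.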
